A study of Homo sapiens with 16 samples.

Results

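The genes described here are the PGC-1 coactivator genes PPARGC1A and PPARGC1B, the transcription factor genes FOXO1 and KLF15, and 6 genes of glucose output and amino acid use in liver, G6PC, SLC37A4, PCK1, PCK2, PC and TAT. They were chosen by name. Each of the 10 symbols was found in 1 row of the 56969 genes of the deposited table, and all 10 reached the mean of 10 normalized counts required for testing. The cells were HepG2, an established human liver cancer line, and both groups received siRNA. One group of 8 libraries came from cells given a control siRNA, and the other 8 from cells given siRNA directed at HCF-1, the product of HCFC1 and a cofactor that works on chromatin. All cells were transfected, transfected a second time and then lysed for RNA. The labels call the libraries biological replicates, and they name no hormone, cAMP or insulin treatment in either group. The model is a single cancer line grown with serum, and the siRNA sequences are unknown here.

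PGC-1 coactivators do not bind DNA themselves: they are brought to promoters by transcription factors and recruit histone acetyltransferases and Mediator there. In fasted liver, glucagon acting through cAMP induces PPARGC1A, and its product works with FOXO1, HNF4A and the glucocorticoid receptor on the genes of gluconeogenesis, whereas insulin moves FOXO1 out of the nucleus. HCF-1 is known to bind PGC-1 proteins, and with the sugar transferase OGT it has been linked to the stability of PGC-1 alpha protein. RNA levels do not measure these protein events.

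Libraries held 21030830 to 32820459 recovered reads in the control group and 25098840 to 43186890 in the HCF-1 siRNA group. HCFC1, the targeted gene, had 4851 to 6878 normalized counts in control libraries and 3112 to 4171 in HCF-1 siRNA libraries, a mean at 65.4% of control with no overlap (log2 fold change -0.61 ± 0.07, SE; adjusted p = 4.52e-06 in limma), so the knockdown was partial. All 10 liver cell markers examined were expressed. Of these, 6 rose, among them ALB (0.52 ± 0.06) and TTR (0.63 ± 0.06), while the fibrinogen gene FGB fell (-0.50 ± 0.05; log2 fold change and SE). The summed level of the 10 was 721721 to 787758 normalized counts in control and 858263 to 1026617 in HCF-1 siRNA libraries, so it moved with the rises described next, and its part in them was not tested. Of 11 markers of blood, endothelial and mesenchymal cells, 10 were in the table and 5 reached the mean for testing. The summed counts of the 10 in the table, 3832 to 4704 in control and 3796 to 4594 after HCF-1 siRNA, covered much the same range. CD3E and KDR were listed at 0 in all 16 libraries, but ACTA2 had 1641 to 1946 and CD68 1030 to 1293 normalized counts in control. Of the 5 tested, COL1A1 was called lower (log2 fold change -0.56 ± 0.15, SE; adjusted p = 0.00718 in limma) and 4 were not called.

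Some promoter sequence is shown first for 3 genes, because control elements of glucagon and insulin signalling are usually described in promoters. In addition, G6PC and SLC37A4, which serve the same enzyme system, gave different results. Whether the PPARGC1A window printed here is the promoter in which such elements are described was not examined. RefSeq (GRCh38.p14, another build than the hg19 build of the counts) held windows for 8 of the 10 genes. Each sequence is the 250 bases before an annotated start, written 5′ to 3′ along the gene, and capitals mark the motifs found. The first is G6PC (chr17:42900549-42900798, plus strand). The second is the downstream of the 2 starts of PPARGC1A (chr4:23881102-23881351, minus strand), and the third is the upstream of the 2 starts of SLC37A4 (chr11:119030878-119031127, minus strand).
G6PC: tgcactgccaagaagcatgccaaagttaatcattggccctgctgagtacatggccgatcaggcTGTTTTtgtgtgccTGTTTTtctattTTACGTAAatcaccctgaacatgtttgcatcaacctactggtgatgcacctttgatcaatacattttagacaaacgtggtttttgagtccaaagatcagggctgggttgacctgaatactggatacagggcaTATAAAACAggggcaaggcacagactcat
PPARGC1A: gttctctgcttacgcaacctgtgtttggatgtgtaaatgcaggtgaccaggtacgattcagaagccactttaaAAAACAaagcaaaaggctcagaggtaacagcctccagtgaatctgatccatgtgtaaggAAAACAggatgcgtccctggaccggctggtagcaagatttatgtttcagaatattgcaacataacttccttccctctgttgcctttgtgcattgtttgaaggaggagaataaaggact
SLC37A4: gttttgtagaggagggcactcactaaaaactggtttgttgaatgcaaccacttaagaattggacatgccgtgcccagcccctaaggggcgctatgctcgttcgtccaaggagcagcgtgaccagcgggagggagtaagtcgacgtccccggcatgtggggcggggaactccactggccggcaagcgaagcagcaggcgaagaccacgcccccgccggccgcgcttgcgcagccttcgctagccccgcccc

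Motifs were searched on both strands as TNACGTNA, a pattern that takes in cAMP response elements, TGTTTT, the core of insulin response elements bound by forkhead factors, and GTAAACA, the forkhead consensus. TATAAA was searched on the gene's own strand only. Among all 35116 windows of the same length, 4.1% held TNACGTNA, 17.3% held TGTTTT, 2.98% held GTAAACA and 6.8% held TATAAA. The G6PC window held TTACGTAA from 161 to 154 bases before the start, TGTTTT from 187 to 182 and from 173 to 168 bases before it, and TATAAA from 29 to 24 bases before it. A match to TGTTTT on the other strand, AAAACA, overlapped that TATAAA. In the PPARGC1A window, AAAACA stood 177 to 172 and 118 to 113 bases before the start, and no other pattern matched. The SLC37A4 window printed above held none of these patterns, but the window of its downstream start held TGTTTT 104 to 99 bases and TATAAA 30 to 25 bases before that start. The G6PC and PPARGC1A windows each had 44% G and C, with 3 and 4 CpG dinucleotides, and the SLC37A4 window had 63.2% with 21; the median of all windows was 58% with 11. The downstream SLC37A4 window had 56.4% with 3. PPARGC1A has a second window farther upstream (70.8% G and C, 33 CpG) with none of these patterns. For neither PPARGC1A nor SLC37A4 does the table tell which start gave the reads. TNACGTNA matched in the G6PC window and in neither SLC37A4 window. TGTTTT and TATAAA matched in the G6PC window and in the downstream SLC37A4 window. Whether the windows bear on the different results of G6PC and SLC37A4 was not tested. A match describes letters in a sequence and is not evidence of binding.

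After HCF-1 siRNA, PPARGC1A RNA was 2.42-fold its control mean, and PCK1, G6PC and TAT RNA were 1.67-fold, 1.64-fold and 1.51-fold theirs. PPARGC1B, FOXO1, KLF15, PCK2, PC and SLC37A4 did not pass the test. Thus 4 of the 10 genes rose and 0 fell at an adjusted p under 0.05 (limma, Benjamini-Hochberg over the 16081 genes tested), where 18.2% of all genes tested rose and 18.3% fell. At an unadjusted p under 0.05 limma also gave 0 lower, and edgeR and DESeq2 on the recovered reads each called 4 of the 10 higher and 0 lower. All 4 rose at least 1.5-fold, a change called higher in 5.65% of genes tested. TAT stood at that limit, and its log2 fold change ran from 0.55 to 0.66 over the alternatives, which falls on both sides of it. The groups did not overlap for PPARGC1A, PCK1 and TAT, which held for 9.82% of genes tested. In bulk RNA, more RNA per cell and more cells with the RNA cannot be told apart.

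**Figure D1:**
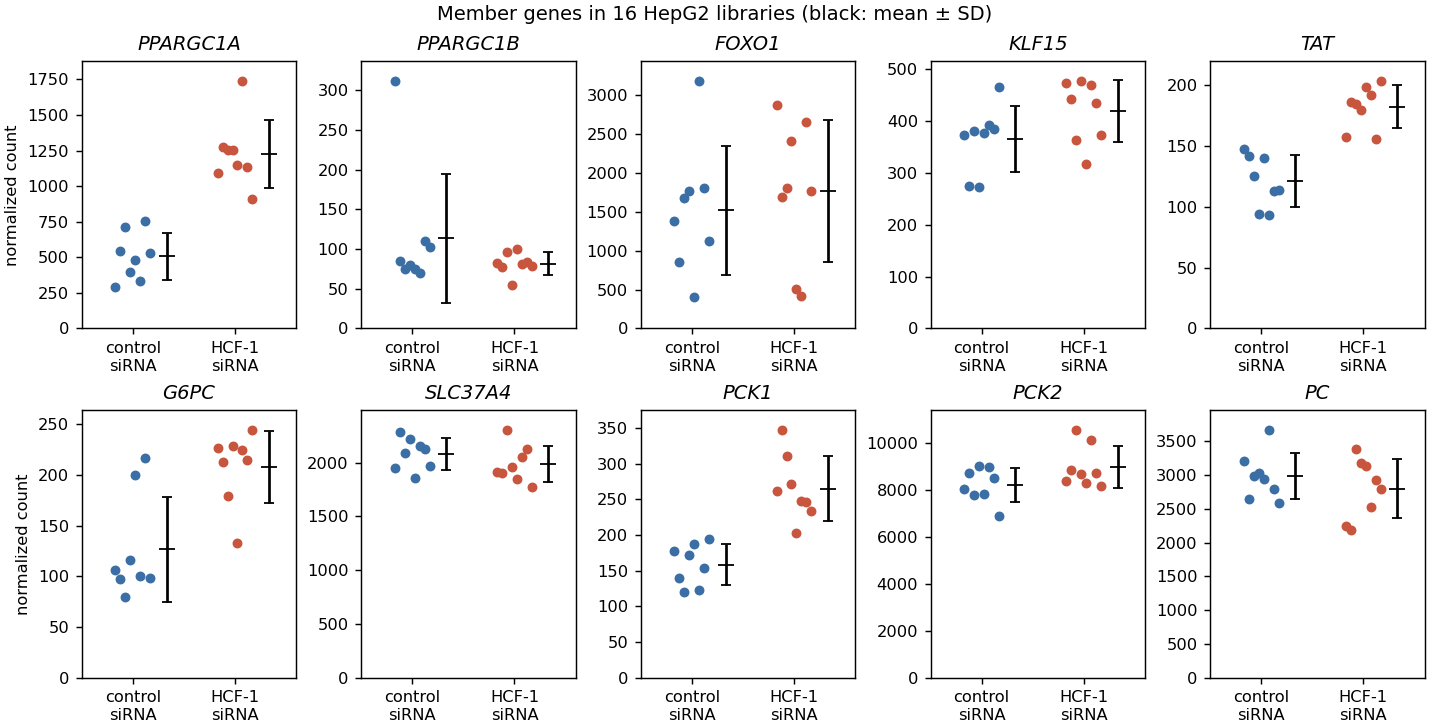
Normalized counts (vertical axes, each from 0) of the 10 genes in 8 control siRNA libraries (blue) and 8 HCF-1 siRNA libraries (orange), 1 point per library, with mean and SD in black. The orange points of PPARGC1A, PCK1 and TAT all lie above the blue points, FOXO1 spans nearly the same range in both groups, and PPARGC1B has 1 high control library at 311.5.

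PPARGC1A (ENSG00000109819) encodes PGC-1 alpha, the family member most closely tied to fasting. Its lowest, median and highest values were 294, 506 and 756 normalized counts in control libraries and 912, 1199 and 1739.8 in HCF-1 siRNA libraries. Every HCF-1 siRNA library was above every control library, and control replicates 3 and 7 came nearest with 714 and 756. The mean went from 506 ± 167 to 1226 ± 238 (SD, n = 8 each). The log2 fold change, on the log2(normalized count + 1) scale used throughout, was 1.32 ± 0.18 (SE; adjusted p = 2.13e-05 in limma; 95% interval 0.95 to 1.70). A two-sided exact permutation test over all 12870 assignments of libraries to groups gave p = 0.000155, the smallest it can give. Replicate 6 of the HCF-1 siRNA group was the highest library, at 1739.8 against at most 1276 in the other 7. The relative spread was 33.1% of the mean in control and 19.4% after HCF-1 siRNA.

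PPARGC1B (ENSG00000155846) encodes PGC-1 beta, a coactivator better known in liver for lipid synthesis and mitochondrial genes. Its lowest, median and highest values were 70.3, 82.0 and 311.5 normalized counts in control and 54.2, 81.6 and 99.9 after HCF-1 siRNA. The medians lay close together, and the single high value was control replicate 1, with the next control at 110.5. In log2 terms the change was -0.29 ± 0.25 (SE; adjusted p = 0.373 in limma; 95% interval -0.81 to 0.22). Without control replicate 1 it was -0.06 (limma adjusted p = 0.768). With as few as 61 reads in a library, this gene was among the most coarsely counted of the 10.

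Whether the coactivator genes responded differently was tested with their ratio inside each library, which does not depend on library scaling. The log2 ratio of PPARGC1A to PPARGC1B was 2.27 ± 1.00 in control and 3.89 ± 0.39 after HCF-1 siRNA (SD, n = 8 each; two-sided exact permutation p = 0.000155, adjusted over 3 ratios p = 0.000466). The ratio was thus 3.07-fold higher after HCF-1 siRNA, a difference of 1.62 on the log2 scale. Without control replicate 1, the library with high PPARGC1B, the difference was 1.28.

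FOXO1 (ENSG00000150907) encodes the insulin-restrained forkhead factor. Its lowest, median and highest values were 399, 1526 and 3183 normalized counts in control and 419.7, 1786 and 2877 after HCF-1 siRNA, so the groups covered nearly the same range. In the HCF-1 siRNA group, replicates 6 and 5 had 419.7 and 509 normalized counts, and the other 6 libraries had 1684 or more. In the control group, replicate 5 was low at 399, and replicate 6 was high at 3183. The within-group SD was 0.98 on the log2 scale, against a median of 0.17 over the 12729 genes with a mean of 50 or more, and larger than in 98.4% of them. A split like that of the HCF-1 siRNA libraries, with at least 2 libraries on either side of a gap of 1 or more on the log2 scale, was found in that group for 137 of these genes, or 1.076%. The labels do not tell those libraries apart. The limma fit estimated a log2 fold change of 0.16 ± 0.45 (SE; adjusted p = 0.816 in limma; 95% interval -0.81 to 1.12), and it was -0.09 without control replicate 5, so these data set neither the size nor the direction of a FOXO1 change.

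KLF15 (ENSG00000163884) encodes a zinc finger factor that promotes amino acid breakdown and gluconeogenesis in fasting. Its lowest, median and highest values were 273, 379 and 465 normalized counts in control and 317, 439 and 478 after HCF-1 siRNA. Only 3 HCF-1 siRNA libraries lay above all controls. This gave a log2 fold change of 0.20 ± 0.11 (SE; adjusted p = 0.177 in limma; 95% interval -0.04 to 0.45).

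**Figure D2:**
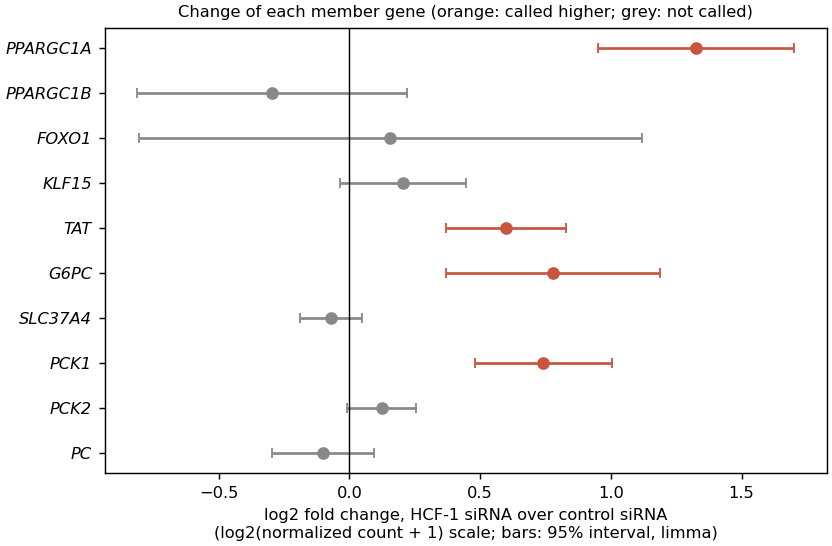
Log2 fold change of each of the 10 genes, HCF-1 siRNA over control siRNA, with its 95% interval from limma (horizontal axis), in orange where the gene was called higher and in grey where it was not called. The intervals of PPARGC1A, TAT, G6PC and PCK1 lie above 0, and those of FOXO1 and PPARGC1B are the widest of the genes not called.

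Glucose 6-phosphatase, which frees glucose for export, joins a catalytic subunit encoded by G6PC to a transporter encoded by SLC37A4 that carries its substrate into the endoplasmic reticulum. G6PC (ENSG00000131482) had lowest, median and highest values of 79.2, 103 and 217 normalized counts in control and 132, 219.7 and 244 after HCF-1 siRNA. Control replicates 5 and 7, at 199.9 and 217, lay among the HCF-1 siRNA libraries, while the other 6 controls stayed at or below 116. Of the HCF-1 siRNA libraries, 4 lay above all controls, all 8 lay above the control median, and replicate 5 was lowest at 132. The mean went from 127 ± 51.7 to 208 ± 35.9 (SD, n = 8 each). Its log2 fold change came to 0.78 ± 0.19 (SE; adjusted p = 0.00452 in limma; 95% interval 0.37 to 1.19; two-sided exact permutation p = 0.00311).

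SLC37A4 (ENSG00000137700) had lowest, median and highest values of 1857, 2112 and 2285 normalized counts in control and 1771, 1941 and 2306 after HCF-1 siRNA. The groups overlapped almost fully, and its within-group SD was the smallest of the 10 genes, 0.11 on the log2 scale. In log2 terms the change was -0.07 ± 0.06 (SE; adjusted p = 0.362 in limma), and its 95% interval, -0.19 to 0.05, bounds any change to a small one. The log2 ratio of G6PC to SLC37A4 went from -4.12 ± 0.56 to -3.27 ± 0.32 (SD, n = 8 each; two-sided exact permutation p = 0.00389, adjusted over 3 ratios p = 0.00389). G6PC RNA therefore rose 1.80-fold relative to SLC37A4 RNA. This does not cover all catalytic subunit RNA. G6PC3, a related catalytic subunit gene, had 2195 to 2634 normalized counts in control, more than G6PC, and fell to 1653 to 2046. Its ratio to SLC37A4 was not tested. Of the exon bases of SLC37A4, 12.95% overlap TRAPPC4 on the opposite strand in GENCODE 29, and whether reads were counted by strand is not stated.

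Phosphoenolpyruvate carboxykinase exists in a cytosolic form encoded by PCK1, the classical hormone-induced step of gluconeogenesis, and a mitochondrial form encoded by PCK2, which is linked to amino acid stress in tumour cells. PCK1 (ENSG00000124253) had lowest, median and highest values of 120, 163 and 194 normalized counts in control and 203, 255 and 348 after HCF-1 siRNA. The groups did not overlap, though the lowest HCF-1 siRNA library, replicate 5, was only just above the highest control. The mean went from 159 ± 28.7 to 265 ± 45.5 (SD, n = 8 each). The limma fit estimated a log2 fold change of 0.74 ± 0.12 (SE; adjusted p = 1.78e-04 in limma; 95% interval 0.48 to 1.00). The exact permutation test (two-sided) gave p = 0.000155, again its smallest possible value.

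PCK2 (ENSG00000100889) had lowest, median and highest values of 6894, 8269 and 9036 normalized counts in control and 8181, 8702 and 10559 after HCF-1 siRNA. HCF-1 siRNA replicates 3 and 6, at 10559 and 10116, lay above all controls, and the other 6 lay within the control range. This gave a log2 fold change of 0.12 ± 0.06 (SE; adjusted p = 0.132 in limma; 95% interval -0.01 to 0.26). The log2 ratio of PCK1 to PCK2 went from -5.71 ± 0.35 to -5.09 ± 0.22 (SD, n = 8 each; two-sided exact permutation p = 0.000777, adjusted over 3 ratios p = 0.00117). PCK1 RNA thus rose 1.53-fold relative to PCK2 RNA.

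PC (ENSG00000173599) encodes pyruvate carboxylase, the mitochondrial enzyme that makes the oxaloacetate used by both carboxykinases. Its lowest, median and highest values were 2591, 2962 and 3667 normalized counts in control and 2189, 2858 and 3379 after HCF-1 siRNA. Of the HCF-1 siRNA libraries, 3 lay below all controls, and the other 5 lay within the control range. Its log2 fold change came to -0.10 ± 0.09 (SE; adjusted p = 0.421 in limma; 95% interval -0.30 to 0.09).

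TAT (ENSG00000198650) encodes tyrosine aminotransferase, a liver enzyme of tyrosine breakdown and a classical target of glucocorticoids and cAMP. Its lowest, median and highest values were 92.7, 119 and 147 normalized counts in control and 156, 185 and 203 after HCF-1 siRNA. The groups did not overlap, and the gap between them was narrow. The mean went from 121 ± 21.2 to 182 ± 17.6 (SD, n = 8 each). In log2 terms the change was 0.60 ± 0.11 (SE; adjusted p = 3.74e-04 in limma; 95% interval 0.37 to 0.83). The exact permutation test (two-sided) gave p = 0.000155 here too. Of its exon bases, 10.6% overlap the opposite-strand gene TAT-AS1 in GENCODE 29, and reads of the overlap may have been counted for either gene.

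To compare levels between genes, normalized counts were divided by exon length in kilobases. In control libraries the mean level per kilobase was highest for PCK2, at 2572, followed by SLC37A4 at 751 and PC at 619. FOXO1 had 265 per kilobase and KLF15 had 142. PPARGC1A had 56.2, G6PC 40.9, PCK1 36.5 and TAT 30.4 per kilobase, and PPARGC1B was lowest at 9.20. The ranges over the 8 control libraries overlapped between SLC37A4 (670 to 824) and PC (538 to 761), between FOXO1 (69.5 to 555) and KLF15 (106 to 181), and among PPARGC1A (32.7 to 84.1), G6PC (25.6 to 70.1), PCK1 (27.6 to 44.7) and TAT (23.3 to 36.9). FOXO1 also overlapped PC, PPARGC1A and G6PC, and PPARGC1B (5.70 to 25.3) overlapped TAT through its 1 high library. The order between overlapping genes was therefore not resolved, while PCK2 (2156 to 2825) stood above every other gene. After HCF-1 siRNA the means per kilobase were 136 for PPARGC1A, 67.2 for G6PC, 61.1 for PCK1 and 45.7 for TAT, still below SLC37A4 at 717, PC at 581 and PCK2 at 2805. By control mean per kilobase, the 4 genes called higher were, with PPARGC1B, the 5 lowest. The overlap of FOXO1 with PPARGC1A and G6PC leaves that ranking unresolved by the ranges.

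Whether PPARGC1A or FOXO1 followed the enzyme genes from library to library was examined within each group of 8, since pooling the groups would carry the group difference into the correlation. Of 26 relations planned, 7 involve FOXO1 in the HCF-1 siRNA group, where it splits the libraries, and were not tested. None of the other 19 passed Benjamini-Hochberg adjustment over the 19 (exact permutation of pairings): the lowest adjusted p was 0.434 for Pearson's r and 0.349 for Spearman's rho. At an unadjusted p under 0.05, 2 relations passed by either measure.

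In control libraries PPARGC1A had an r of 0.23 with G6PC (exact permutation p = 0.593, rho = -0.12), -0.22 with PCK1 (exact p = 0.596, rho = -0.29) and 0.11 with TAT (exact p = 0.782, rho = -0.02). In HCF-1 siRNA libraries the r was -0.02 with G6PC (exact p = 0.945, rho = -0.43), 0.24 with PCK1 (exact p = 0.577, rho = 0.55) and 0.07 with TAT (exact p = 0.866, rho = 0.07). So among libraries of 1 group, those with more PPARGC1A RNA did not detectably have more RNA of the 3 enzyme genes that rose, and 8 libraries leave wide room for relations of moderate strength. The r with PCK1 in HCF-1 siRNA libraries was 0.71 without the 2 libraries farthest from the PPARGC1A median, and 0.0902 to 0.601 with 1 library left out. PPARGC1A and FOXO1 had an r of -0.16 in control (exact permutation p = 0.718, rho = -0.05). Without the 2 libraries farthest from the PPARGC1A median that r was 0.35, so its sign rested on those libraries.

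The 2 relations that passed before adjustment were not among those. FOXO1 and TAT had an r of -0.70 in control (exact permutation p = 0.0456; rho = -0.76, exact p = 0.0368), and -0.57 without the 2 libraries farthest from the FOXO1 median. PPARGC1A and PCK2 had an r of 0.72 in HCF-1 siRNA libraries (exact permutation p = 0.0363; rho = 0.81, exact p = 0.0218), and 0.57 without the 2 libraries farthest from the PPARGC1A median. Both had adjusted p of 0.434 by Pearson's r and 0.349 by Spearman's rho.

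**Figure D3:**
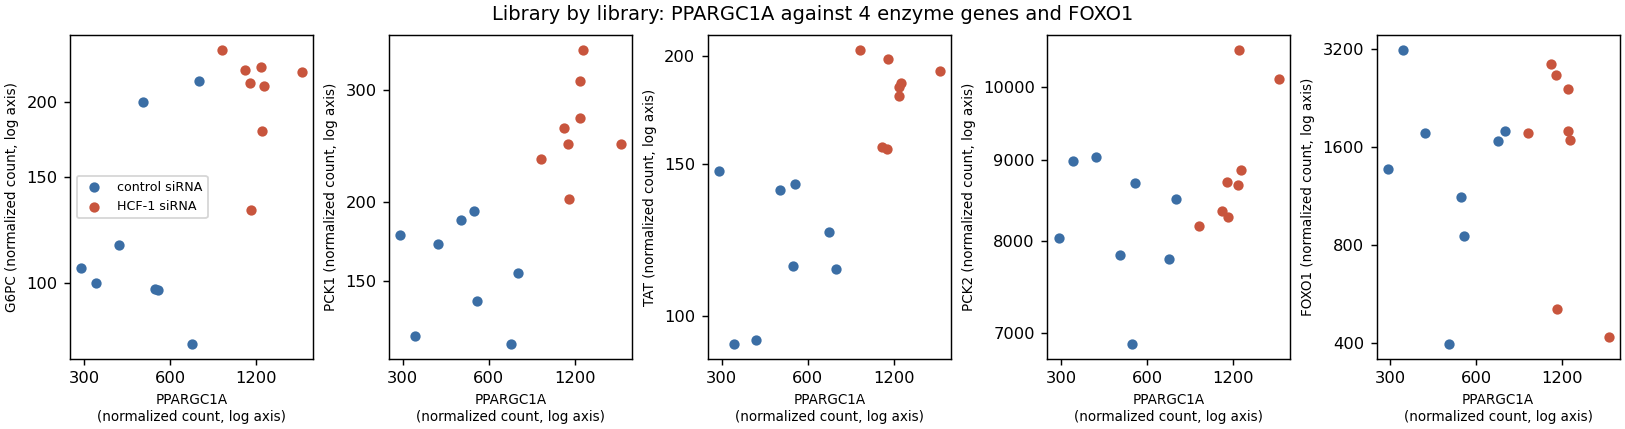
Each library's PPARGC1A level (horizontal, normalized count, log axis) against G6PC, PCK1, TAT, PCK2 and FOXO1 (vertical, normalized count, log axes), control siRNA in blue and HCF-1 siRNA in orange. The groups separate along PPARGC1A, and within a colour the points of G6PC, PCK1 and TAT show no passing relation with PPARGC1A.

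Other genes of the pathway were grouped in 6 lists. Among 24 other genes of glucose production and its glycolytic and shuttle enzymes, 20 were tested, of which 4 rose, 10 fell and 6 were not called (median log2 fold change -0.12, against 0.01 over all genes tested; 36.6% of all genes tested were called). The largest falls were G6PC3 and GOT2. G6PC3, the broadly expressed relative of G6PC, fell from 2195 to 2634 normalized counts in control libraries to 1653 to 2046 (log2 fold change -0.41 ± 0.05, SE; adjusted p = 6.77e-06 in limma), so the catalytic subunit genes moved in opposite directions. GOT2, the mitochondrial aspartate aminotransferase, fell by 0.28 on the log2 scale (SE 0.03), with no overlap between the groups. ALDOC, an aldolase gene, rose by 0.43 ± 0.08 (SE), and 14.5% of its exon bases overlap a gene on the opposite strand. Chosen after their values were seen, PYGL, the liver glycogen phosphorylase, rose by 0.25 ± 0.03 (SE), and FBP1, the fructose bisphosphatase of gluconeogenesis, was too low to test, at 6.35 to 15.98 normalized counts in control and 4.32 to 13.4 after HCF-1 siRNA.

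Among 19 partners and modifiers of PGC-1 proteins, all tested, 6 rose, 1 fell and 12 were not called (median 0.09 on the log2 scale). That is 36.8% called, against 36.6% of all genes tested. The share that rose was 31.6%, against 18.2% of all genes tested, of which 18.3% fell. The gene that fell was HCFC1 itself, the target of the siRNA, and it counts in the 36.8%. The list was not tested as a set. OGT, the transferase that modifies HCF-1 and acts with it on PGC-1 alpha, rose from 1201 to 1741 normalized counts in control to 1994 to 2855 (log2 fold change 0.71 ± 0.08, SE; adjusted p = 3.64e-06 in limma). MED1, a Mediator subunit that PGC-1 alpha contacts, rose by 0.35 ± 0.05 (SE; adjusted p = 2.36e-05 in limma). The other 4 that rose are given because they complete the count. They were the third PGC-1 family gene PPRC1 (0.30 ± 0.06), the acetyltransferase genes EP300 (0.28 ± 0.04) and KAT2A (0.26 ± 0.08), and HNF4A (0.13 ± 0.05; log2 fold change and SE). Of the exon bases of KAT2A, 13.0% overlap a gene on the same strand.

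Of 15 mitochondrial and metabolic genes that PGC-1 coactivators are known to induce, 14 were in the table and 12 tested: 2 rose, 4 fell and 6 were not called (median -0.09 on the log2 scale), where 18.2% of all genes tested rose and 18.3% fell. UCP2, a mitochondrial carrier, fell by 0.35 on the log2 scale (SE 0.12; limma adjusted p = 0.0228). COX5B, a cytochrome oxidase subunit, fell by 0.26 (SE 0.06; limma adjusted p = 0.00156). IDH3A, a subunit of isocitrate dehydrogenase, fell by 0.34 (SE 0.07), but 60.3% of its exon bases overlap ACSBG1 on the opposite strand. The others called were SOD2 (0.22 ± 0.04) and SIRT5 (0.25 ± 0.07), which rose, and ATP5B, which fell by 0.19 on the log2 scale. Of the exon bases of SIRT5, 17.8% overlap a gene on the opposite strand.

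Of 17 genes of the cAMP arm, 14 were tested: 2 rose, 1 fell and 11 were not called (median 0.06 on the log2 scale). Called genes made up 21.4% of those tested here, below the 36.6% of all genes tested. CRTC2, a coactivator of CREB at PPARGC1A and gluconeogenic promoters, rose from 538 ± 97.6 to 805 ± 149 normalized counts (SD, n = 8 each; log2 fold change 0.58 ± 0.13, SE; adjusted p = 0.00177 in limma). PRKACA, a catalytic subunit of protein kinase A, fell by 0.31 on the log2 scale (SE 0.05; limma adjusted p = 2.36e-04), with no overlap between the groups. ATF1, a factor related to CREB, rose by 0.25 ± 0.08 (SE; adjusted p = 0.0249 in limma), a call lost without HCF-1 siRNA replicate 1 (limma adjusted p = 0.0523) and with no filter on low genes (limma adjusted p = 0.062). The glucagon receptor gene GCGR, chosen after its values were seen, was listed at 0 to 25.3 normalized counts in control and 0 to 11.5 after HCF-1 siRNA and was not tested.

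Of 13 genes of the FOXO family and its targets, 12 were tested: 5 rose, 0 fell and 7 were not called by limma (median 0.14 on the log2 scale). The share called was 41.7%, near the 36.6% of all genes tested, of which 18.2% rose and 18.3% fell. At an unadjusted p under 0.05, FOXO4 and TRIB3 were lower, while edgeR and DESeq2 called 0 of the list lower. With total-count scaling TRIB3 was called lower (log2 fold change -0.14). BCL6, a transcriptional repressor, rose from 354 to 630 normalized counts in control to 830 to 1262 (log2 fold change 0.96 ± 0.11, SE; adjusted p = 5.23e-06 in limma). Of the exon bases of BCL6, 7.85% overlap AC072022.2 and 4.22% overlap AC072022.1, both on the opposite strand. SESN1, a stress-induced regulator of growth signalling, rose by 0.59 ± 0.06 (SE; adjusted p = 7.02e-07 in limma) with no overlap. IGFBP1, a liver-secreted binding protein restrained by insulin through FOXO1, rose by 0.54 ± 0.09 (SE; adjusted p = 1.46e-04 in limma), from 2044 to 3262 normalized counts in control to 3098 to 3938. The other 2 that rose, CDKN1B and INSR, were called only narrowly (limma adjusted p = 0.0204 and 0.0472) and were not called with no filter on low genes, so that the count was then 3; over all alternatives it ran from 3 to 6.

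Of 16 other transcription factor genes acting on the G6PC and PCK1 promoters, all were tested: 6 rose, 0 fell and 10 were not called by limma (median 0.04 on the log2 scale). With 37.5% called, the list was close to the 36.6% of all genes tested, of which 18.2% rose and 18.3% fell. The count of lower genes was also 0 at an unadjusted p under 0.05 and by edgeR and DESeq2, and it was 1, CEBPA, without HCF-1 siRNA replicate 6 (log2 fold change -0.22). ONECUT1, a liver-enriched homeobox factor, rose by 0.72 ± 0.17 (SE; adjusted p = 0.0033 in limma), from 152 ± 46.9 to 243 ± 42.8 normalized counts (SD, n = 8 each). NR2F1, a nuclear receptor, rose by 0.37 ± 0.07 (SE; adjusted p = 7.96e-04 in limma). CEBPD, a leucine zipper factor, rose by 0.27 ± 0.08 (SE; adjusted p = 0.0113 in limma).

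**Figure D4:**
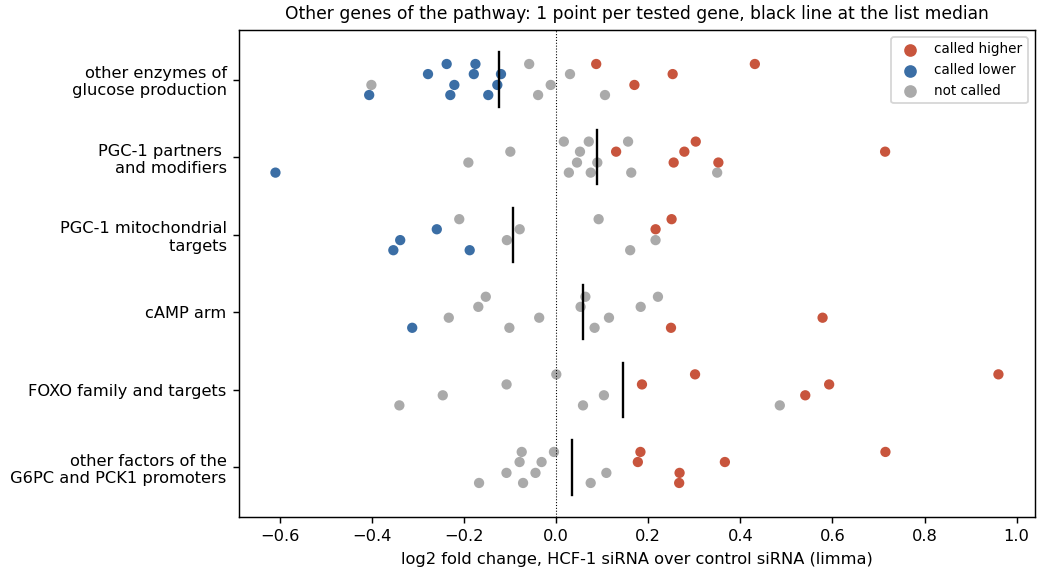
Log2 fold change of each tested gene of the 6 lists (horizontal axis, HCF-1 siRNA over control siRNA, limma), 1 point per gene, orange for called higher, blue for called lower and grey for not called, with a black line at each list's median. The lists of FOXO targets and of other promoter factors hold no blue point, and the enzymes of glucose production hold 10.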

How the data were processed

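RNA of HepG2 cells was sequenced as stranded mRNA libraries, per the labels' protocols, 8 for each siRNA. Normalized counts, a signal value for each gene in each library, were deposited in 1 table. Per the submitters' processing notes the tools were STAR 2.4.1d, cutadapt 1.4.2, DESeq2 1.16.1 and featureCounts 1.4.4, and the build was hg19. The annotation release, strand setting and filters were not given in the sources used here. Within a library every deposited value divided by the library's smallest step into a whole number of reads (tolerance 0.001 read, met by 100% of values), which recovered the reads. No libraries agreed within sampling noise.

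Groups were compared with limma 3.58.1 in R 4.3.3 (eBayes, trend and robust), fitted to log2(deposited normalized count + 1) over the 16081 genes with a mean of 10 or more. Genes were called at a Benjamini-Hochberg adjusted p under 0.05. The pseudocount understates changes of low genes. On recovered reads edgeR 4.0.16 (quasi-likelihood) called 5853 genes and DESeq2 1.42.0 called 6258, against 5879. Exact permutation tests, correlations and ratios were computed in Python 3.11.15. The limma step was tested on simulated data.

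The genes and lists were chosen with earlier results of these data known. Named by rule were HCFC1, the 10 genes, from each list the called genes that changed most, at most 3 and only with a mean of 50 in either group, and the 5 genes most like PPARGC1A and FOXO1 in pattern. Exon lengths and overlaps are from GENCODE 29 (GRCh38). Tried as alternatives were a pseudocount of 0.5 or 10, a filter at a mean of 50 or none, scaling by upper quartile or total count, edgeR, DESeq2, reads thinned to the smallest library, a replicate block and each library left out. Relations between the enzyme genes were added after seeing the data.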

Additional observations from a re-analysis of the deposited data

Results flagged for a closer look

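In the HCF-1 siRNA group, replicate 6 had 1739.8 normalized counts of PPARGC1A, apart from the other 7 libraries, the highest of which had 1276. In the control group, replicate 1 had 311.5 normalized counts of PPARGC1B, apart from the other 7, which had 70.3 to 110.5. These were the 2 groups of libraries in which 1 library stood apart among 22 examined, where chance gives about 1 in 20. The 22 cover the 10 genes and HCFC1 in each group. The rule was applied to normalized counts and not to their log2 values.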

How the results depend on the processing

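PPARGC1A, G6PC, PCK1 and TAT stayed called higher in all 26 alternatives, and the other 6 genes stayed not called. Leaving out 1 library gave log2 fold changes of 1.22 to 1.42 for PPARGC1A, 0.69 to 0.90 for G6PC, 0.68 to 0.80 for PCK1 and 0.55 to 0.64 for TAT. FOXO1 ranged from -0.0895 to 0.413 and changed direction without control replicate 5. The differences in the 3 ratios kept adjusted p of at most 0.0313 in 19 alternatives. Genes called ranged from 5163 with no filter to 6258 with DESeq2. With no filter the FOXO family list had 3 genes called against 5, when 37046 genes entered the adjustment. Over libraries left out, the r of PPARGC1A in control libraries ran from -0.33 to 0.13 with FOXO1, -0.21 to 0.56 with G6PC, -0.575 to 0.0755 with PCK1 and -0.19 to 0.55 with TAT. In HCF-1 siRNA libraries it ran from -0.30 to 0.28 with G6PC and -0.20 to 0.52 with TAT, so none of these 6 has a settled sign. With PCK1 it kept its sign there, at 0.0902 to 0.601, and with PCK2 it ran from 0.578 to 0.942. The r of FOXO1 with TAT in control libraries ran from -0.812 to -0.561. No relation passed adjustment in any alternative (exact permutation of pairings, lowest adjusted p = 0.0528). The groups share replicate numbers, but same-numbered libraries did not deviate together (correlations -0.13 to 0.14, with 1 of 8 best with its own number). With the replicate number as a block, 5484 genes were called and the limma adjusted p was 4.90e-04 for PPARGC1A, 0.0159 for G6PC, 0.00317 for PCK1 and 0.00306 for TAT. Depth limits PPARGC1B, TAT and G6PC most, with as few as 61, 72 and 88 reads in a library.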

Other observations

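After subtracting group means, the 5 genes whose log2 levels over the 16 libraries were most like PPARGC1A among genes with a mean of 50 or more were CTD-3074O7.12 (r = 0.84), HIPK1 (0.83), SP140L (0.82), HELZ (0.82) and SLC18B1 (0.80). For FOXO1 they were AC004057.1 (r = 0.80), PRDM2 (0.74), NCOA1 (0.74), MAST1 (0.73) and SMARCA2 (0.72). They are the highest of many genes, the libraries share depth and handling, and no p is given. NCOA1 encodes a nuclear receptor coactivator and had 602 ± 75.7 normalized counts in control and 528 ± 72.1 after HCF-1 siRNA (SD, n = 8 each). SMARCA2, a chromatin remodelling ATPase gene, fell by 0.54 on the log2 scale after HCF-1 siRNA (SE 0.07; limma adjusted p = 1.82e-05). HIPK1, a kinase gene, rose by 0.17 ± 0.04 (SE; adjusted p = 0.00234 in limma). CTD-3074O7.12, the gene most like PPARGC1A, fell by 0.46 on the log2 scale (SE 0.11; limma adjusted p = 0.00385). SP140L, HELZ and SLC18B1 were not called.

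Relations among the 6 enzyme genes were examined after seeing the data, over all 15 pairs in each group. None of the 30 passed adjustment (exact permutation of pairings, lowest adjusted p = 0.382 for Pearson's r and 0.653 for Spearman's rho), and 1 by Pearson's r and 2 by Spearman's rho had an unadjusted p under 0.05. PCK2 and SLC37A4 had the highest r in both groups, 0.70 in control (exact permutation p = 0.0506; rho = 0.74, exact p = 0.0458) and 0.82 in HCF-1 siRNA libraries (exact permutation p = 0.0127; rho = 0.81, exact p = 0.0218). Without the 2 libraries farthest from the PCK2 median these were 0.73 and 0.69. G6PC and PCK1, which both rose after HCF-1 siRNA, had an r of 0.42 in control (exact permutation p = 0.300; rho = 0.43) and 0.33 in HCF-1 siRNA libraries (exact permutation p = 0.412; rho = -0.07).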
